A study of Mus musculus with 18 samples.

Results

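The milk protein genes are the genes for the caseins and whey proteins that the lactating mammary gland secretes, and 7 of the 20325 genes in the deposited tables belong to them here: Csn1s1, Csn1s2a, Csn2, Csn3, Wap, Lalba and Glycam1. They were chosen by symbol with earlier results of these data known, on their values in tumors against cells, so those values are given as a description without a test. The tumors (n = 6) arose from C3H10T1/2 cells, mesenchymal cells of C3H mouse embryo origin able to form fat, cartilage or bone, which stably expressed histone H3.3 with lysine 36 changed to methionine and a FLAG-HA tag (H3.3K36M). For each, 2000000 such cells in Matrigel were placed under the skin of both flanks of athymic female SCID mice aged 6 to 8 weeks, and tumors were taken 5 to 6 weeks later. The cultured groups were the same H3.3K36M line (n = 2), a line with tagged H3.1K36M (n = 2), parental cells given siRNAs against Nsd1, Nsd2 and Setd2, which methylate H3K36 (HMT siRNA, n = 3), parental cells given scramble siRNA (n = 3) and a line with tagged wild-type H3.3 (n = 2). Cultures were at passage 10 to 15. The labels do not say which tumors shared a mouse, where on the flank they grew, or whether cell libraries came from separate cultures, so the p-values measure the spread between these libraries only. No tumor of another line was analysed here. Hosts and injected cells are both mouse, and in bulk RNA the source cell of a transcript, and fewer cells against less RNA per cell, cannot be told apart.

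Milk protein genes are switched on in the luminal alveolar cells of the mammary gland in late pregnancy and lactation. Prolactin binds its receptor Prlr, the kinase Jak2 then phosphorylates Stat5a and Stat5b, and these bind palindromic sites in the control regions of the caseins and Wap together with the glucocorticoid receptor Nr3c1, Nfib and the Ets factor Elf5. Calcium-sensitive caseins (Csn1s1, Csn1s2a, Csn2) carry calcium phosphate in micelles that kappa-casein (Csn3) keeps in suspension. Lalba turns the galactosyltransferase B4galt1 into lactose synthase, Wap is the main whey protein of rodent milk, and Glycam1 is a mucin-like protein of milk that is also made by high endothelial venules of lymph nodes.

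The bases upstream of 4 members are shown because the STAT5 palindrome is the sequence through which prolactin is known to act on these genes. RefSeq promoter tables (GRCm38.p6) had entries for 6 of the 7 members, and the 250 bases before each start were searched on both strands for TTCNNNGAA. Matches, in capitals below, lay in 3 of the 6 windows, against 7.04% of 32536 windows in the table. Their first base was at -100 from the start in Csn1s1 (chr5:87665958-87666207, plus strand), -93 in Csn2 (chr5:87699426-87699675, minus strand) and -145 in Glycam1 (chr15:103565082-103565331, minus strand). Wap (chr11:6638650-6638899, minus strand) held no match in this window, nor did Csn1s2a or Lalba. The TATAAA string was in 0 of the 6 windows and in 12.3% of all windows. A match describes the letters only.
Csn1s1: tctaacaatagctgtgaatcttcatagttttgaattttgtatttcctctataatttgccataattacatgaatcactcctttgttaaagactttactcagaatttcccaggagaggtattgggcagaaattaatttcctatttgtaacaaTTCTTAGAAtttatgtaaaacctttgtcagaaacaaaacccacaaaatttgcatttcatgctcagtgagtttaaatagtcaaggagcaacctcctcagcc
Csn2: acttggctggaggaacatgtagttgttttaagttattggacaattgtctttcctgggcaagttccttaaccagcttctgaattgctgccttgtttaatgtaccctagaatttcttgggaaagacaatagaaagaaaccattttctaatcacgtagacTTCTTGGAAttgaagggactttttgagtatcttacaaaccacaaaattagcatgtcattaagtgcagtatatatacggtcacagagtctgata
Glycam1: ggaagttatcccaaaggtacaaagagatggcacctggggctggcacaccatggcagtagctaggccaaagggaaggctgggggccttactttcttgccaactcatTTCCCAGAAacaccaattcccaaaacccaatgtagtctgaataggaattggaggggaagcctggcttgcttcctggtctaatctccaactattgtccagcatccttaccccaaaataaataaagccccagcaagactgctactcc
Wap: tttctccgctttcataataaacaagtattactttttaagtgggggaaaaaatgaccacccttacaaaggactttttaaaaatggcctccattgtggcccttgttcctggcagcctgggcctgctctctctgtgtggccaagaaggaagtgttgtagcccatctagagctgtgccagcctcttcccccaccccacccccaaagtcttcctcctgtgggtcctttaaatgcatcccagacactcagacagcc

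The values are estimated read counts that the authors divided by a factor per library, called normalised counts below, and libraries held 13993307 to 56041798 estimated reads (24659432 to 55811835 in the tumors). The siRNA targets were lower in HMT siRNA cells, at 69.4% of the control siRNA mean for Nsd1, 66.7% for Nsd2 (listed as Whsc1) and 34.9% for Setd2. Tumor 6 stood a little apart, with Spearman correlations of 0.975 to 0.980 with the other tumors, whose own pairs reached 0.991. Tumors carried macrophage and endothelial RNA: the 8 macrophage markers summed to 175196 to 283502 normalised counts in tumors and 167 to 512 in cultured libraries. The 3 C1q genes read 11.2 to 43.1 in the H3.1K36M libraries and 0 in the other 4 cultured libraries of the table. The labels give no batch.

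The calcium-sensitive caseins were high in tumors 5 and 6, intermediate in tumor 3 and at or near 0 elsewhere. Csn1s1, alpha-S1-casein, had 7.38, 0.904, 375, 3.04, 5004 and 1186 normalised counts in tumors 1 to 6, against 0 in both H3.3K36M, 0 and 1.92 in the H3.1K36M and 0 in both wild-type libraries. Csn1s2a, an alpha-S2-casein, had 2.68, 0, 174, 2.02, 9274 and 2046 in tumors 1 to 6 and 0 in all 6 cultured libraries of that table. Csn2, beta-casein, had 7.38, 0, 106, 3.04, 4382 and 1669 in tumors 1 to 6, against 0 in every cultured library but H3.1K36M replicate 2, which had 1.92. Differences inside the tumor group were thus as wide as those between tumors and cells. In tumors 1, 2 and 4 these 3 genes rested on 0 to 11 estimated reads each, a depth at which neighbouring values cannot be ranked.

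Kappa-casein was the member with the fewest empty libraries. Csn3 had 8.72, 5.42, 42.2, 8.10, 1218 and 341 normalised counts in tumors 1 to 6, against 1.16 and 0 in H3.3K36M, 1.40 and 4.79 in H3.1K36M and 0 in both wild-type libraries. Every tumor lay above every cultured library, but tumor 2 (6 estimated reads) and H3.1K36M replicate 2 (5 estimated reads) differ by less than counting error allows to be seen. Csn3 is overlapped by the long non-coding RNA gene 1700066N21Rik in the RefSeq annotation, the strand setting of the counting is not given in the sources used here, and reads of that RNA cannot be told apart from its own. No other member overlaps an annotated gene.

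The whey protein genes split into one found in every tumor and one nearly limited to tumors 5 and 6. Lalba, alpha-lactalbumin, had 26.1, 15.4, 10.9, 4.05, 662 and 96.3 normalised counts in tumors 1 to 6 and 0 in all 6 cultured libraries. Below the top pair, tumors 1 and 2 had higher values than tumor 3, unlike for the caseins. Tumors 1 to 4 rested on 39, 17, 8 and 4 estimated reads of Lalba, so this order is uncertain. Wap, whey acidic protein, had 0, 0, 0, 1.01, 2829 and 161 in tumors 1 to 6 and 0 in all 6 cultured libraries. The value in tumor 4 stands for 1 estimated read, and tumor 5 was 17.6-fold above tumor 6.

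Glycam1 had the same split as Wap, with 0, 0, 0, 1.01, 1780 and 837 normalised counts in tumors 1 to 6 and 0 in all 6 cultured libraries. Here tumor 5 was 2.13-fold above tumor 6, the smallest such ratio among the 7 members. Because Glycam1 is also a product of lymph node vessels, the 4 high endothelial markers were set beside it. Chst4, the sulfotransferase of those vessels, was at 0 in all 6 tumors and at 12.1 and 15.2 in H3.3K36M cells, and Madcam1 had 1.15 to 7.22 normalised counts. Ccl21a, their chemokine, had 106, 104, 156, 7.08, 256 and 13.8 in tumors 1 to 6, so tumor 6, with 837 of Glycam1, was among the lowest tumors for Ccl21a. Fut7, a fucosyltransferase of those vessels and of leukocytes, had 65.4 to 100.2 in the tumors and 15.0 and 22.8 in H3.3K36M cells. Summed, the 4 markers were at 80.3 to 343 in tumors and 2.79 to 38.0 in cultured libraries, with tumor 6 the lowest tumor. Their part in the Glycam1 values was not tested.

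**Figure D1:**
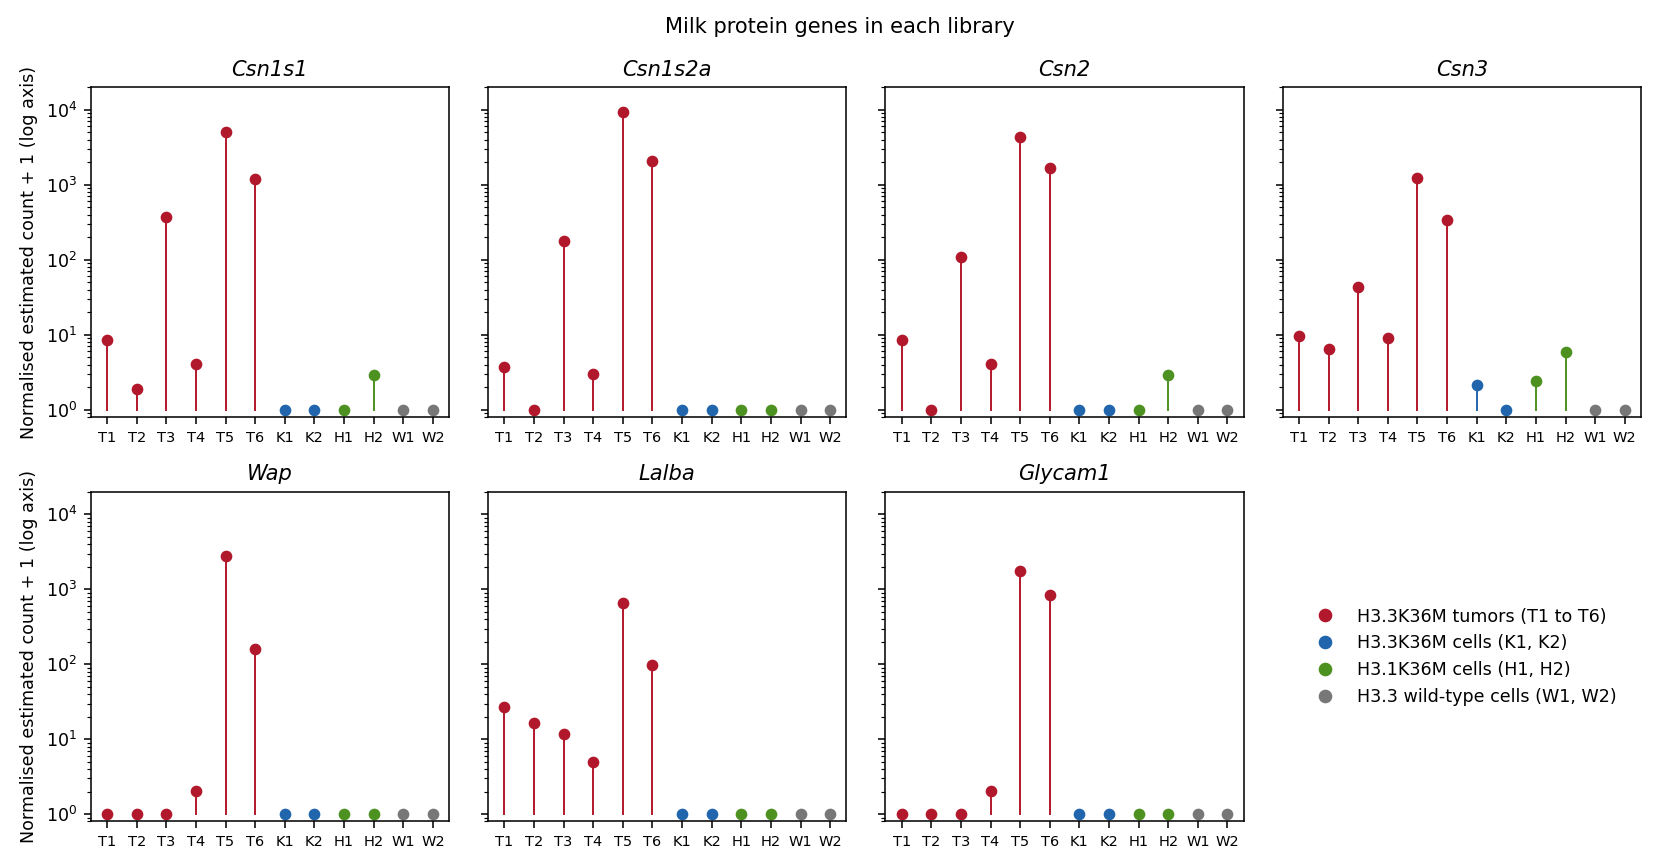
Normalised estimated count + 1 (log axis) of each milk protein gene in every library of the xenograft table, 1 panel per gene and 1 point per library. Tumors 5 and 6 are the highest points in all 7 panels, at 662 to 9274 and 96.3 to 2046 normalised counts, and most cultured libraries lie at 0.

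Cultured cells gave almost no reads of these genes in any line. Of the 42 cultured values of the table with the tumors, 5 were above 0, the highest being Csn3 in H3.1K36M replicate 2. H3.1K36M replicate 1 held 1 of these and replicate 2 held 3, and these libraries were also the cultured ones with reads of the C1q genes. The source of those reads was not tested. All 42 values of the siRNA libraries were 0, as were 27 of 28 in the table of H3.3K36M and wild-type cells, where the exception was Csn3 at 1.15 normalised counts. None of the 7 members reached the level needed for testing (10 normalised counts in as many libraries as the smaller group holds) in H3.3K36M against wild-type cells, H3.1K36M against wild-type cells or HMT siRNA against control siRNA cells. All 7 passed that filter among tumors and H3.3K36M cells, through the tumors alone. Per 1000000 estimated reads the 7 genes together took 1.40, 0.581, 19.0, 0.545, 707 and 186 reads in tumors 1 to 6. H3.3K36M cells had 0.0357 and 0 and H3.1K36M cells 0.0406 and 0.252. Wild-type cells had 0, for which 3 reads allow up to 0.118 and 0.129. The exact binomial 95% interval was 696 to 717 in tumor 5 and 0.341 to 0.825 in tumor 4. These intervals and limits cover counting error only.

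The members were ordered alike across tumors at the top. Tumor 5 was highest and tumor 6 next for 7 of 7 members, an order found in 2.59% of the 14853 genes with at least 10 normalised counts in a tumor. Tumors 5, 6 and 3 were each above tumors 1, 2 and 4 for 4 of 7 members, the caseins, against 6.48% of those genes. Every tumor was above every cultured library for 2 of 7, Csn3 and Lalba, against 27.2% of 18440 genes above 0. Because the members were picked from these values, nothing is read from these counts. Summed over members, tumor 5 stood 3.97-fold above tumor 6, tumor 6 stood 8.94-fold above tumor 3 and tumor 3 stood 13.5-fold above tumor 1. Tumor 5 alone held 77.9% of the sum over the 6 tumors, and tumors 5 and 6 together 97.5%.

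Spread between tumors exceeded the mean for each member, as for Csn2 at 1028 ± 1770 and Lalba at 136 ± 260 normalised counts (SD, n = 6). On the log2(normalised count + 1) scale the 6 tumors spanned 7.04 (Lalba) to 13.2 (Csn1s2a), against a median span of 0.66 over the 14853 genes, of which 0.370% spanned at least 7.04. At least 10 normalised counts were reached by 1, 1, 5, 0, 7 and 7 of the 7 members in tumors 1 to 6. With a level of 1 the numbers were 5, 2, 5, 7, 7 and 7.

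The make-up of the milk protein RNA differed between the tumors in which it could be counted. Values were divided by the length of each gene's longest coding transcript (GENCODE M21), so that genes can be compared. In tumor 5, Csn1s2a made up 38.1% of the length-scaled signal, Wap 19.4%, Csn1s1 13.4%, Csn2 12.5%, Glycam1 10.5%, Lalba 3.25% and Csn3 2.89%. In tumor 6, Csn1s2a made up 35.5%, Glycam1 20.9%, Csn2 20.1%, Csn1s1 13.4%, Wap 4.66%, Csn3 3.41% and Lalba 2.00%. The share of Csn1s1 thus matched in both to within the last digit printed, while Wap and Glycam1 changed places. In tumor 3, Csn1s1 led with 46.2%, followed by Csn1s2a at 32.9%, Csn2 at 13.9%, Csn3 at 4.59% and Lalba at 2.45%, with no read of Wap or Glycam1.

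Counting error was small beside these shifts. Of the 17425 estimated reads of members in tumor 5, not scaled by length, Wap took 11.2% (exact binomial 95% interval 10.8 to 11.7%), against 2.53% (2.14 to 2.98%) of 5525 in tumor 6. In tumor 3, where 521 reads were counted, 0 reads of Wap or Glycam1 allow a share of up to 0.576%, under both of those values and under the 7.08% of Glycam1 in tumor 5 and 13.2% in tumor 6. Csn1s2a stood at 1.85 and 1.73 times Csn1s1 in tumors 5 and 6 and at 0.464 times in tumor 3, as ratios of normalised counts. Lalba led in tumors 1 and 2, with 39 of 78 reads (38.5 to 61.5%) and 17 of 24 reads (48.9 to 87.4%), and tumor 4 had 22 reads in all. Each tumor is 1 library, so these intervals say nothing of how a repeat of the tumor would vary.

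**Figure D2:**
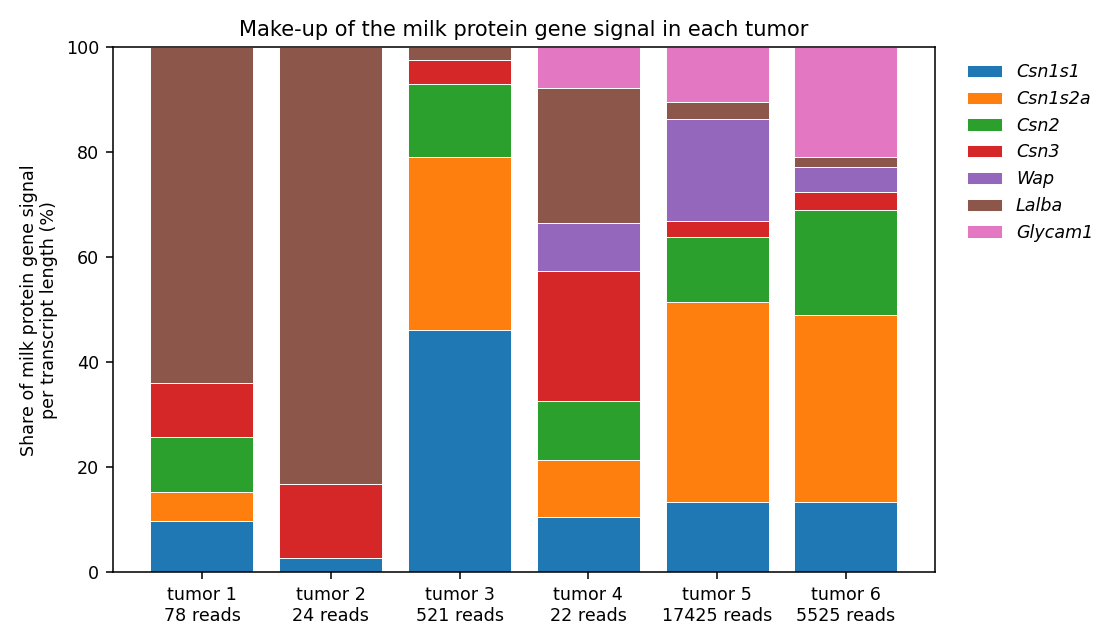
Share of each milk protein gene in the summed, length-scaled signal of the 7 genes (%), 1 bar per tumor, with the estimated reads behind each bar below it. Caseins make up most of tumors 3, 5 and 6, Wap and Glycam1 appear in tumors 5 and 6 but not in tumor 3, and the bars of tumors 1, 2 and 4 rest on 78, 24 and 22 reads.

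The casein genes lie in 1 cluster on chromosome 5, and the genes between them that the table holds were nearly silent in the tumors. In RefSeq order (GRCm38) the cluster runs from Csn1s1 and Csn2 through Csn1s2a, Csn1s2b, Prr27 and Odam to Csn3. Csn1s2b, a close relative of Csn1s2a, had 23.1 normalised counts in tumor 5 and 0 in the other 5 tumors and in every cultured library. Prr27 (listed as 4930432K09Rik) and Odam, an ameloblast protein, were at 0 in all 12 libraries. Estimated counts of Csn1s2a and Csn1s2b can share reads, so the low value of Csn1s2b is uncertain. Of the 8 cluster and flanking genes listed beside the members, 0 reached the level for testing.

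Other components of milk were compared by test, with limma on log2(normalised count + 1) and Benjamini-Hochberg adjustment over all 14842 genes at 0.05. Of all genes, 41.0% were higher and 34.2% lower in tumors than in H3.3K36M cells, and the median log2 difference was 0.14, or -0.05 and -0.08 after scaling to a common sum and after quantile normalisation. Of 13 other secreted milk components tested, 5 were higher and 0 lower, with a median log2 fold change of 1.47 (1.46 with genes at 0 in cells set at their lower bound), and after quantile normalisation 4 were higher and 1 lower. Expi, a small secreted protease inhibitor of mammary epithelium, had 12.1, 14.5, 273, 9.11, 803 and 87.2 normalised counts in tumors 1 to 6, against 1.16 and 1.90 in H3.3K36M cells. All 6 tumors were above both cell libraries (log2 fold change 4.55 ± 1.61 SE, limma adjusted p = 0.0275). This call was lost without either H3.3K36M library (adjusted p = 0.123 and 0.0946) and without tumor 6 (0.0632), and also with a pseudocount of 10 (0.0953) or all 6 cultured libraries as reference (0.0503). Expi read 69.5 and 79.4 in wild-type cells.

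The other 4 that rose are also made outside the mammary gland, and none of them had tumor 5 highest with tumor 6 next. Pthlh, a calcium-mobilising peptide, had 59.1 ± 18.9 normalised counts in tumors and 4.02 ± 1.66 in H3.3K36M cells (SD, n = 6 and 2). Muc1, a mucin of the milk fat globule, had 73.8 ± 38.4 and 19.0 ± 4.00, Xdh, an enzyme of that globule's coat, 2317 ± 295 and 838 ± 59.6, and Mfge8, which bridges cells to dying cells, 19825 ± 3004 and 8359 ± 364 in the same order of groups. Their log2 fold changes were 3.56, 1.80, 1.46 and 1.23 (limma adjusted p = 2.55e-05, 0.00267, 1.21e-05 and 0.000128). Muc1 no longer passed after quantile normalisation (adjusted p = 0.170).

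Of the 8 components that did not pass the test, some were high in the tumors rich in milk protein RNA and others were not, and they are named here after their values were seen. Btn1a1, butyrophilin of the milk fat globule, had 3.35, 5.42, 24.5, 0, 297 and 91.8 normalised counts in tumors 1 to 6, against 6.39 and 7.58 in H3.3K36M cells (adjusted p = 0.620) and 30.7 and 31.8 in wild-type cells, above tumor 3. Ltf, the iron-binding lactoferrin, had 0.670, 0.904, 8.16, 1.01, 442 and 20.6 in tumors and 0 in both H3.3K36M libraries (adjusted p = 0.159, or 0.0376 with a pseudocount of 0.1), and 6.68 and 2.89 in wild-type cells. Lao1, an amino acid oxidase of mouse milk, had 0.670, 0.904, 1.36, 0, 209 and 34.4 in tumors and 0 in all 6 cultured libraries (adjusted p = 0.234). As for the members, tumor 5 was the highest tumor for each of the 3, and tumor 6 the next. Slpi, a secreted protease inhibitor, was instead lowest in tumor 5, at 527 normalised counts, and highest in tumor 4, at 1462 (adjusted p = 0.0574). Spp1, osteopontin, was lowest in tumors 5 and 6, at 27219 and 25252, against 39527 to 69272 in the other tumors (adjusted p = 0.813).

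The genes of milk fat and lactose synthesis moved in both directions, as did all genes, of which 41.0% were higher and 34.2% lower. Of 16 milk fat genes tested, 4 were higher and 6 lower, with a median log2 fold change of 0.05, and after scaling to a common sum 3 were higher and 8 lower. Those lower included Fasn, the fatty acid synthase, at 5824 ± 945 normalised counts in tumors and 21556 ± 742 in H3.3K36M cells (limma adjusted p = 3.74e-06). Without either H3.3K36M library 2 were higher. Of 11 genes of lactose synthesis and mammary transport, 3 were higher and 4 lower, with a median of 0.31. B4galt1, the partner of Lalba, had 14160 ± 749.5 in tumors and 8762 ± 215 in H3.3K36M cells (limma adjusted p = 8.45e-05), with 13300 to 15155 over the tumors, a narrow range beside that of Lalba.

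The receptor of prolactin was higher in tumors, while Jak2, Stat5a and Stat5b below it were lower. Of 15 prolactin signalling genes tested, 4 were higher and 8 lower, with a median log2 fold change of -0.54, against 41.0% and 34.2% of all genes. Prlr had 70.1, 73.7, 96.9, 112, 114 and 69.8 normalised counts in tumors 1 to 6, against 23.7 and 31.8 in H3.3K36M cells (log2 fold change 1.64 ± 0.28 SE, limma adjusted p = 0.000512). It varied little over the tumors, and tumor 6 was the lowest of them. After quantile normalisation Prlr had a log2 fold change of 0.53 and did not pass (adjusted p = 0.178).

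Jak2 (log2 fold change -1.18, limma adjusted p = 0.000152) and Nr3c1 (-1.71, 2.93e-06) were lower in tumors. Stat5a and Stat5b, named after their values were seen, were lower too: Stat5a had 963 ± 30.0 normalised counts in tumors and 1635 ± 45.4 in H3.3K36M cells, and Stat5b had 1617 ± 136 and 2702 ± 120 (limma adjusted p = 2.93e-05 and 0.00014). Nfib was lower (-1.33 ± 0.36 SE, limma adjusted p = 0.00756), a call lost without H3.3K36M replicate 1 (0.0521) and against all 6 cultured libraries (0.0959). Of the feedback inhibitors, Socs1 was higher (2.22, 3.66e-07) and Socs2 lower (-1.63, 0.000234), while Socs3 was higher (0.75, 0.00451) and Cish did not pass (-0.41, adjusted p = 0.0954). Socs1 also responds to interferons and other cytokines.

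Elf5, the Ets factor of alveolar cells, had the same split between tumors as the caseins. It had 2.68, 0.904, 42.2, 2.02, 130 and 40.1 normalised counts in tumors 1 to 6, against 0 and 2.85 in H3.3K36M, 0 in both H3.1K36M and 2.67 and 18.8 in wild-type libraries. Tumors 3, 5 and 6 were above all cultured libraries and tumors 1, 2 and 4 were within their range. The groups overlapped and the test did not pass (log2 fold change 2.73 ± 1.62 SE, limma adjusted p = 0.151). Erbb4, a receptor of the lactating gland, was at 0 in all 6 tumors.

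Epithelial markers were present in the tumors. Of 19 luminal genes tested, 8 were higher and 2 lower, with a median log2 fold change of 2.30 (1.59 with the 4 genes at 0 in cells at their lower bound). Of all genes, 41.0% were higher and 34.2% lower, so the number of luminal genes higher was near the share over all genes. After quantile normalisation 7 were higher and 5 lower, and without either H3.3K36M library 5 were higher. Without tumors 5 and 6, a choice made after the data were seen, 16 were tested, 6 higher and 5 lower, and without tumor 6 alone 4 were lower. Epcam, an epithelial adhesion molecule, had 125, 41.6, 122, 11.1, 293 and 67.7 normalised counts in tumors 1 to 6 and 0 in all 6 cultured libraries. Its tumor mean was at least 48.1-fold higher than 3 reads per H3.3K36M library would give (limma adjusted p = 0.000358).

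Simple keratins of luminal cells were uneven. Krt8 had 215, 92.2, 126, 73.9, 277 and 213 normalised counts in tumors 1 to 6, against 31.8 and 25.6 in H3.3K36M cells (log2 fold change 2.35 ± 0.49 SE, limma adjusted p = 0.00179). Krt18, its partner, had 36.2, 4.52, 73.4, 4.05, 165 and 172 in tumors and 4.62 and 4.75 in H3.3K36M cells, and did not pass (adjusted p = 0.113). Without tumor 4 it did (0.0392), as it did against all 6 cultured libraries (0.00221). Krt18 was highest in tumors 6, 5 and 3, the tumors with the most casein RNA. Krt7, also a keratin of simple epithelia, was lower, at 35.2 ± 13.8 in tumors and 125 ± 16.5 in H3.3K36M cells (log2 fold change -1.88, limma adjusted p = 0.002). Cdh1, the epithelial cadherin, was the other luminal gene that was lower, at 225 ± 98.5 in tumors and 764 ± 43.9 in H3.3K36M cells (-1.90, limma adjusted p = 0.00385). Krt7 read 0 in both wild-type libraries and 255 and 296 in H3.1K36M cells. Cdh1 read 195 and 185 in wild-type and 192 and 211 in H3.1K36M cells. Against all 6 cultured libraries 0 luminal genes were lower. Krt19 did not pass (0.03 ± 1.09 SE, limma adjusted p = 0.981).

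Among the other luminal genes that rose, the tight junction genes Cldn4 and Cldn7 and the Ets factor Ehf had tumor means of 38.1, 13.0 and 37.2 normalised counts, against 0, 0.289 and 3.09 in H3.3K36M cells (limma adjusted p = 0.000505, 0.0148 and 0.00616). Cldn7 did not pass without either H3.3K36M library (0.0536 and 0.107) or with a pseudocount of 10 (0.0990), nor Ehf without replicate 1 (0.0538) or against all 6 cultured libraries (0.518). Ehf read 521 and 528 in wild-type cells, above every tumor. Kit, a receptor of luminal progenitors that mast cells also carry, had 116 to 222 in tumors and 0 in all 6 cultured libraries, at least 71.2-fold higher than 3 reads per H3.3K36M library would give (2.3e-08).

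Basal keratins were high in some tumors, but not in those richest in milk protein RNA alone. Of 7 basal genes tested, 3 were higher and 1 lower, with a median log2 fold change of 1.50, against 41.0% higher and 34.2% lower of all genes. Krt5 had 8880, 3090, 5092, 58.7, 10274 and 21.8 normalised counts in tumors 1 to 6, against 1.73 and 0 in H3.3K36M cells (limma adjusted p = 0.00538). Tumor 6, second for every milk protein gene, had the least Krt5. Krt14 had 16912, 3804, 4834, 67.4, 11985 and 36.4 in tumors and 25.3 and 23.5 in H3.3K36M cells (adjusted p = 0.0446), a call lost without any one library other than tumor 4 or 6 (0.0704 to 0.154). It was also lost with a pseudocount of 10, with no filter and under either other scaling (0.0511 to 0.0906), and without both tumors 5 and 6 (0.0652). Krt14 also read 197 and 175 in wild-type cells, above tumors 4 and 6. Krt17 was at 9.16 to 3670 in tumors and 0 in all 6 cultured libraries (limma adjusted p = 0.00613). Krt1, on the keratinocyte list, had 2211, 143, 605, 12.1, 2001 and 3.44 in tumors 1 to 6. Like the basal keratins, it was highest in tumors 1 and 5 and lowest in tumors 4 and 6. Whether the basal keratin RNA came from mammary or skin cells was not tested. Acta2, the smooth muscle actin of myoepithelial cells and of mesenchymal cells, was lower in tumors, at 909 ± 212 against 17412 ± 807 (limma adjusted p = 1.9e-07).

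**Figure D3:**
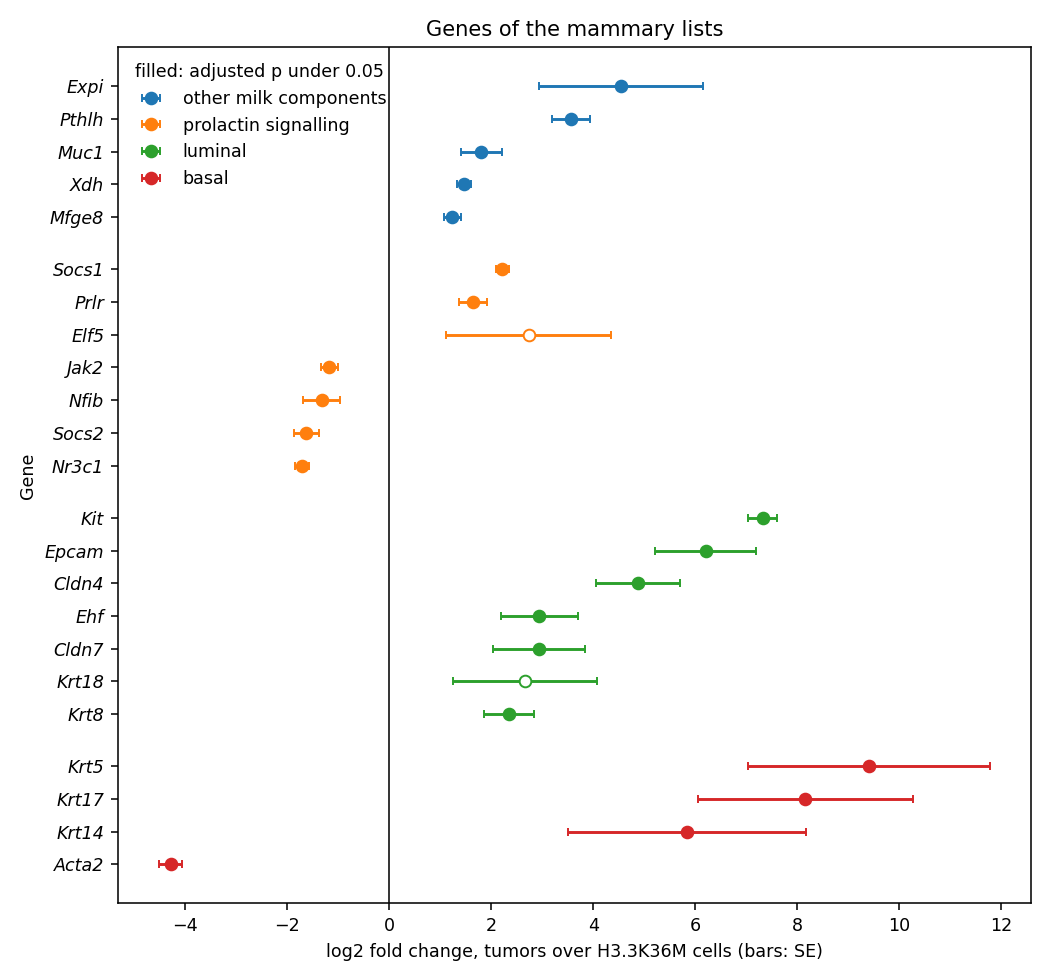
Log2 fold changes of named genes of the mammary lists, tumors over H3.3K36M cells on the log2(normalised count + 1) scale; bars are SE, filled points have a limma adjusted p under 0.05 and colours mark the list. Prolactin signalling genes lie on both sides of 0, from -1.71 for Nr3c1 to 2.22 for Socs1 among those that passed, and Elf5 and Krt18 are open; Kit, Epcam, Cldn4 and Krt17 were at 0 in H3.3K36M cells, so their points depend on the pseudocount.

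Markers of other cell types moved with the milk protein genes in part. Beside the counts below, 41.0% of all genes were higher and 34.2% lower in tumors. Summed over 11 markers, adipocyte RNA was at 4941, 4772, 8580, 4056, 10718 and 4409 normalised counts in tumors 1 to 6, against 1697 to 2530 in cultured libraries, with 8 markers higher and 1 lower by the same test. Adipoq, the fat hormone adiponectin, had 36.2, 48.8, 314, 7.08, 430 and 90.6 in tumors 1 to 6, with tumors 5, 3 and 6 on top. Skeletal muscle RNA, over 9 markers of which 6 were higher and 0 lower, summed to 1356, 2176, 1163, 1098, 8574 and 25999 in tumors 1 to 6, against 236 to 605 in cultured libraries, so tumors 6 and 5 were on top. Without both tumors 5 and 6, 1 muscle marker was lower. With a pseudocount of 10, 5 muscle and 6 adipocyte markers were higher, and against all 6 cultured libraries 8 and 10 were. Keratinocyte markers, 4 of 10 higher and 0 lower, summed to 7283, 1355, 3915, 532, 9500 and 322 in tumors, against 235 to 565 in cultured libraries, with tumor 6 the lowest. All 4 keratinocyte calls were lost without either H3.3K36M library and with a pseudocount of 10, while 2 were higher without tumor 1, 2, 3 or 5, 6 without tumor 4 or 6 or without both tumors 5 and 6, and 8 against all 6 cultured libraries. The part of these cell types in the milk protein values was not tested.

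Salivary, lymphocyte, macrophage and endothelial markers, each summed over its list, did not put tumors 5 and 6 together on top. Of all genes, 41.0% were higher and 34.2% lower in tumors by the same test. Salivary and other exocrine markers, of which 1 of 2 tested was higher, summed to 44.7 to 66.4 normalised counts in tumors and 14.7 to 40.9 in cultured libraries, and Prol1 was at 0 throughout. That 1 call was lost without either H3.3K36M library and after scaling to a common sum, and after quantile normalisation 1 was lower. The lymphocyte genes Ms4a1 and Cd3e were at 0 to 3.44 in tumors, while all 4 lymphocyte markers that could be tested were higher and their list summed to 520.0 to 1641 in tumors, against 6.96 to 17.3 in cultured libraries. Of the 3 high endothelial markers tested, Fut7 (log2 fold change 2.01, limma adjusted p = 6.82e-05) and Ccl21a (0.00186) were higher and Chst4 (0.000155) lower in tumors. Chst4 fell below the level for testing without either H3.3K36M library. The macrophage sum was lowest in tumor 6, with 8 of 8 markers higher. Endothelial markers, 6 of 7 higher, summed to 9920 to 29774 in tumors, the most in tumor 6, against 83.7 to 993 in cultured libraries. After quantile normalisation, and also without both tumors 5 and 6, 1 endothelial marker was lower. Of single endothelial markers, Pecam1 (2845 and 3100), Kdr (589 and 879) and Tek (175 and 140) were highest in tumors 5 and 6. Cdh5, Tie1, Emcn and Esam did not have these tumors together on top. The part of all these cell types in the milk protein values was not tested either.

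**Figure D4:**
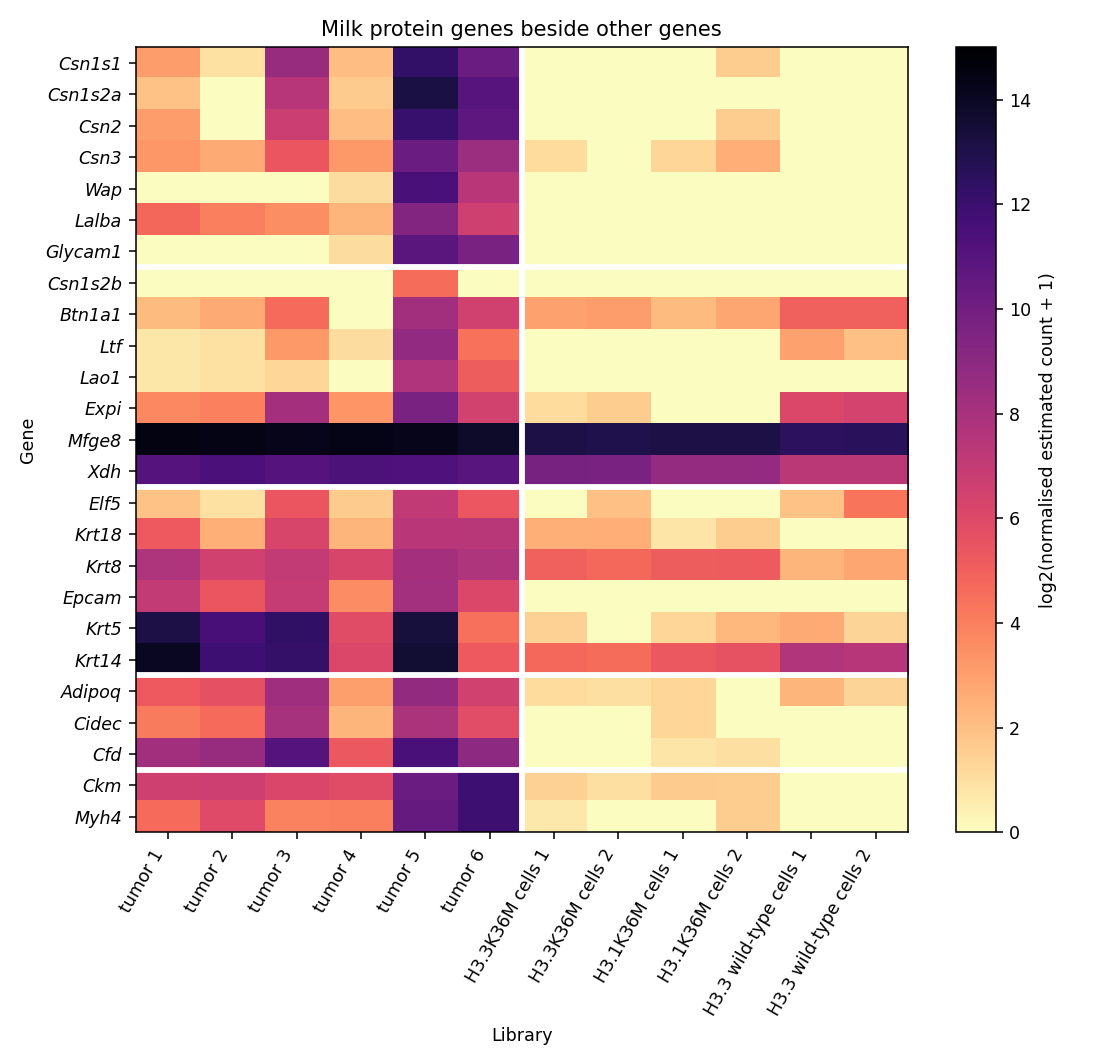
Log2(normalised estimated count + 1) of milk protein genes, other milk components, epithelial, adipocyte and muscle genes (rows, in that order) in the 6 tumors and 6 cultured libraries (columns), darker meaning higher. Rows other than the milk protein genes are a chosen part of their lists. List genes with another pattern, such as Slpi, Spp1, Krt7, Cdh1 and Pparg, are not shown. The dark cells of the milk protein rows are in tumors 5 and 6 and, for the caseins, tumor 3, Krt5 is dark in tumors 1, 2, 3 and 5, and Ckm reaches 1210 and 3705 normalised counts in tumors 5 and 6.

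Likeness of pattern was described across the 6 tumors, as Pearson r with the mean log2(normalised count + 1) of the members, over 12946 genes with at least 50 normalised counts in a tumor. The 10 highest were Dlc1, Rhoj, Mreg, Zfp410, Ralgps2, Fabp3, Ccdc62, Zrsr1, Manea and Wisp1, with r of 0.972 to 0.997. For 9 of these the tumors spanned less than 1 log2 unit, a far smaller difference than that of any member. Fabp3, a fatty acid carrier of muscle and of the lactating gland, was the exception, with 15.4, 10.8, 20.4, 20.1, 157 and 126 normalised counts in tumors 1 to 6, against 12.7 and 10.4 in H3.3K36M cells.

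Among 447 genes whose tumors spanned at least 3 log2 units, a limit set after the data were seen, the 10 highest r were 0.891 to 0.976. They were Fabp3, Lao1, Sftpd, Ltf, Cel, Btn1a1, Elf5, Krt19, Cox8b and Klhl31. Of these, Fabp3, Lao1, Ltf, Btn1a1, Cel and Elf5 were also on the milk and prolactin lists and Krt19 on the luminal list, while Cox8b and Klhl31 are muscle genes, at 59.2 and 27.4 normalised counts in tumor 5 and 77.3 and 96.3 in tumor 6. Sftpd, a collectin first known from lung, had 86.0 and 11.5 in tumors 5 and 6, at most 2.72 in the other tumors and 0 in cultured libraries. With 6 tumors, the pair far above the rest weighs heavily in r.

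Milk protein RNA was absent or nearly so in the cultured lines. Prolactin signalling genes differed between these lines, as did a large share of all genes. Of 14 tested, 8 were higher and 4 lower in H3.3K36M than in wild-type cells (38.6% and 36.1% of all genes), and 8 higher and 6 lower in H3.1K36M than in the same wild-type cells (41.5% and 39.6%). In HMT siRNA against control siRNA cells 3 were higher and 6 lower (32.5% and 32.6%). Prlr had 27.5 ± 5.58 normalised counts in H3.3K36M and 14.6 ± 3.85 in wild-type cells (SD, n = 2 each, log2 fold change 0.88 ± 0.32 SE, limma adjusted p = 0.0274), a call lost without wild-type replicate 2 or either H3.3K36M library (0.0501 to 0.259) and after quantile normalisation (0.624). It had 34.8 ± 1.08 in H3.1K36M and 14.9 ± 3.87 in wild-type cells of the xenograft table (1.19 ± 0.30 SE, limma adjusted p = 0.00291). In HMT siRNA cells Prlr had 29.1 ± 5.15, against 15.6 ± 3.18 in control siRNA cells (0.86 ± 0.26 SE, n = 3 each, limma adjusted p = 0.00895).

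Elf5 did not reach the level for testing in any comparison of cultured lines. Stat5a was lower in H3.3K36M than in wild-type cells (log2 fold change -0.26, limma adjusted p = 0.000614), in H3.1K36M than in wild-type cells (-0.42, 1.42e-06) and in HMT siRNA than in control siRNA cells (-0.27, 4.27e-05). Other list genes rose in the mutant lines. Jak2 was higher in H3.3K36M (0.19, limma adjusted p = 0.00645) and H3.1K36M (0.81, 5.47e-10) than in wild-type cells. Cish was higher there too (0.85, 8.12e-05 and 1.45, 2.61e-07). Both were lower in HMT siRNA cells (-0.25, 0.000186 and -0.49, 0.0103). Stat5b was higher in H3.3K36M (0.17, limma adjusted p = 0.0133) and lower in H3.1K36M cells (-0.29, 6.25e-05). Without wild-type replicate 1 its log2 fold change in H3.3K36M cells was 0.11. In HMT siRNA cells Stat5b did not pass (-0.07, adjusted p = 0.158). Nfib was lower in H3.3K36M than in wild-type cells (-1.99, 2.03e-11) and in H3.1K36M than in wild-type cells (-4.01, 1.08e-14), while its difference in HMT siRNA cells did not pass (0.02 ± 0.05 SE, adjusted p = 0.791). The first and second of these comparisons share their wild-type cells.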

How the data were processed

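RNA was isolated with Trizol and sequenced as TruSeq libraries, per the labels' protocols. The submitters' processing notes name Bowtie 1.0.0, RSEM 1.2.12 and the mm9 build. The authors deposited 3 tables of signal values, estimated read counts divided by a factor per library (called median normalisation in their names). Each table has its own scaling, so no test crosses tables. Depth was taken from the value of 1 estimated read in each library. Among values of 1 to 20 such reads, whole numbers (tolerance 0.01) made up 84.2 to 86.3% in tumors and 77.4 to 78.1% in H3.3K36M cells. The share was 84.0 to 84.2% in H3.1K36M, 83.4 to 84.6% in HMT siRNA and 83.9 to 84.1% in control siRNA cells. Wild-type cells had 75.4 to 76.1%. Culture as such thus did not go with the low share, and H3.1K36M and wild-type cells differed in it too. Between tumors and H3.3K36M cells it cannot be separated from the comparison itself, and its cause was not tested. As values were only partly whole, no count test was run.

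Values were tested with limma 3.58.1 (R 4.3.3) on log2(value + 1), which understates the change of low genes, two-sided, using eBayes with trend and robust set, and p-values were Benjamini-Hochberg adjusted over all genes that reached 10 in 2 libraries (3 for siRNA), the size of the smaller group. The script was tested on simulated data. Tumors were fitted with H3.3K36M cells, other comparisons with their own groups. Limits of a count of 0 use 3 reads. Summaries were made in Python 3.11.15 (pandas 2.3.3, numpy 2.4.6, scipy 1.17.1). Alternatives were another pseudocount, no filter, quantile and common-sum scaling, all 6 cultured libraries as reference, a replicate block, each library left out and other detection levels. No coordinates beyond the RefSeq GRCm38.p6 promoter windows are given, since the genome at hand is not mm9.

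The members and lists were chosen with earlier results of these data known. Named genes are all members, list genes past the test (at most 6 per mammary list by fold change), the defining genes Elf5, Prlr, Krt8, Krt18, Epcam, Krt5 and Krt14, and the 10 genes most like the members. Others named were chosen after their values were seen. A lymphocyte marker is not reported here and is left out of its list.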

Additional observations from a re-analysis of the deposited data

Results flagged for a closer look

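In tumor 5 the value lay further from the nearest other tumor than Dixon's 95% critical value for 6 samples allows, for 10 of 19 genes looked at, 5 of them among the 7 members. Chance passes this value in about 1 group of 20 for normally distributed values of genes not chosen on their values. Normalised counts were used here without a log scale, and whether that rate holds for them was not tested. The members and several of the other genes were chosen on these values and all share 1 library, so nothing is read from the number of genes past it. The members were Csn1s1 (5004 normalised counts, next tumor 1186), Csn1s2a (9274, next 2046), Csn3 (1218, next 341), Wap (2829, next 161) and Lalba (662, next 96.3). Csn2 and Glycam1 did not pass. The other genes were Btn1a1 (297, next 91.8), Ltf (442, next 20.6), Expi (803, next 273), Lao1 (209, next 34.4) and Elf5 (130, next 42.2).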

How the results depend on the processing

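Of 1008 values recomputed under alternatives, 937 kept their direction and their side of the threshold or moved by less than the spread, 37 moved, 31 no longer passed, 3 newly passed and 0 reversed. In tumors against H3.3K36M cells, quantile normalisation made 1 other milk component lower and 5 luminal genes lower, a pseudocount of 10 made 4 luminal genes lower, and without tumors 5 and 6 there were 5. With all 6 cultured libraries as reference, 5 lactose genes and 5 basal genes were higher and 0 luminal genes lower. Leaving out each library in turn gave 2 to 5 milk fat genes higher, 5 to 10 luminal genes higher and 2 to 4 luminal genes lower. The cause was not tested in any of these cases, and no alternative was run for H3.1K36M against wild-type cells. At a level of 1 in place of 10, tumors 1, 2 and 4 had 5, 2 and 7 members, and at a level of 50 tumors 1, 2 and 3 had 0, 0 and 3, since the level sets the count.

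Replicate numbers were not taken as pairs, since deviations of same-numbered libraries had correlations of -0.0619 to 0.0533. Only tumors 1 and 2 could be set beside cells, and in groups of 2 the replicates mirror each other. This check therefore cannot exclude pairing. With the replicate block, the other tumors have no cell library of their number and do not enter the difference. That fit thus compares tumors 1 and 2 with the 2 H3.3K36M libraries, not all tumors. In it 6761 genes were higher and 5676 lower in tumors, against 6086 and 5077 in the fit of all tumors. There 5 luminal genes were lower in place of 2, and 6 keratinocyte markers were higher in place of 4. The salivary call was lost and Krt14 did not pass (limma adjusted p = 0.0610).

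The mean log2 difference of the members between tumors and H3.3K36M cells was 4.97, but 2.92 and 7.34 with pseudocounts of 10 and 0.1, as most cell values are 0. It was 3.71 without tumor 5, 4.15 without tumor 6 and 2.37 without both, and 5.76 at most with another library left out. The members rest on 22 to 78 reads in tumors 1, 2 and 4, whose libraries are the deepest of the tumors (40390456 to 55811835 estimated reads), while tumor 5 has the shallowest (24659432).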
